A study of Mus musculus with 4 samples.

Results

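The 9 genes described here are those by which the vessel wall captures circulating leukocytes, or that mark the wall itself: Vcam1, Icam1, Icam2, Sele, Selp, Ackr1, Csf1, Pecam1 and Cd34. They were taken by symbol, and all 9 were found among the 55357 genes of the count tables. The members were chosen by measured values: the list was drawn up with the Diabetic and Control values of endothelial cells, their vessel zones and their joint detection already known, so those values are given as a description with no test. Mouse retinas gave 4 droplet libraries, of which 2 carry the label Diabetic and 2 the label Ctrl, called Control here. All 4 were enriched with beads for CD31, the protein of Pecam1, before droplet capture with 10x Genomics 3′ chemistry, so a member of the list was itself used to select the cells. The diabetes model, its duration, and the strain, age and number of animals were not in the labels. Whether a group's libraries derive from different animals was not stated either, so each p-value below measures spread between libraries that may be technical.

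Leukocytes leave the blood in steps, mostly across postcapillary venules. Selectins on the endothelium first slow the cell, chemokines displayed on the wall then activate its integrins, and those integrins bind adhesion molecules such as VCAM-1 and ICAM-1 before the cell passes the wall. Tumour necrosis factor and interleukin-1 switch on many of these endothelial genes through the transcription factor NF-kB. In the retina the same vessels form the inner blood-retina barrier, and leukocytes held in retinal vessels are a known feature of diabetic retinopathy.

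Promoter sequences of 6 members were found in RefSeq's table for build GRCm38.p6, and 4 of them, those of Sele, Selp, Icam1 and Csf1, are shown because they held a match to a pattern searched. Each is the 250 bases before the annotated start, read 5′ to 3′ on the gene's strand. Capitals mark matches on either strand to the NF-kB consensus, to the looser pattern GGANNNTCC, to TGANTCA, the pattern of AP-1 sites, or to TATAAA.
Sele, chr1:164047984-164048233, plus strand: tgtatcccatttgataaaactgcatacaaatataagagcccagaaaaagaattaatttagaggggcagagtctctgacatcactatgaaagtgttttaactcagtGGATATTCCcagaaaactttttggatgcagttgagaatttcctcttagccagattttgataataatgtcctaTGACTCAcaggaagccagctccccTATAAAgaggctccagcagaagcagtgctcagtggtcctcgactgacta
Selp, chr1:164115014-164115263, plus strand: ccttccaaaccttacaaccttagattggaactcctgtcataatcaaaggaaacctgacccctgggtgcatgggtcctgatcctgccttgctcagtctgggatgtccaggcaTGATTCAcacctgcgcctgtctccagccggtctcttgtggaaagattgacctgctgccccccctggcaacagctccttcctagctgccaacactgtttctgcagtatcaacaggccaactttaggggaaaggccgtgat
Icam1, chr9:21015690-21015939, plus strand: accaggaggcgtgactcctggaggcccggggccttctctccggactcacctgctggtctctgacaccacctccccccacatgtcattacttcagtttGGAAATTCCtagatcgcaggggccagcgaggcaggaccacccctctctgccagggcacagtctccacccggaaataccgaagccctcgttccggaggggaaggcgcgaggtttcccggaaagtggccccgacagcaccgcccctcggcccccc
Csf1, chr3:107760470-107760719, minus strand: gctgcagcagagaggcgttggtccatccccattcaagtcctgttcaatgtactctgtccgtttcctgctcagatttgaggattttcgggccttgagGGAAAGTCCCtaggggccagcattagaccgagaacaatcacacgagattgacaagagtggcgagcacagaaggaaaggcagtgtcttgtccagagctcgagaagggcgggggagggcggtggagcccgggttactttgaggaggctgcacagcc
The GGANNNTCC match begins 145 bases before the start of Sele, 153 before that of Icam1 and 154 before that of Csf1, where it lies inside a match to the NF-kB consensus. The TGANTCA match begins 73 bases before the start of Sele and 139 before that of Selp, and the TATAAA of Sele 49 before its start. Of all 32851 promoter windows of this length, 7.25% held the NF-kB consensus, 7.27% GGANNNTCC, 6.75% TGANTCA and 12.4% TATAAA. The windows of Ackr1 and Cd34 held no match to these letters. These matches describe the sequence only, since no binding was measured.

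On GRCm38, Vcam1 lies at chr3:116109949-116129688, Icam1 at chr9:21015985-21028817, Icam2 at chr11:106377656-106388075, Sele at chr1:164048234-164057677 and Selp at chr1:164115264-164150026. Ackr1 lies at chr1:173331886-173333750, Csf1 at chr3:107741048-107760469, Pecam1 at chr11:106654217-106750628 and Cd34 at chr1:194938819-194961279. The Ackr1 gene overlaps 493 bases of the 3′ end of Cadm3 on the same strand, so their counts cannot be fully told apart, as taken up below. Vcam1, Icam1, Selp and Cd34 overlap antisense RNA genes, whose endothelial levels were at most 1.26 CPM (UMIs of the gene per 1000000 UMIs of the class) in any library.

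After filtering, 7393 and 3420 cells were kept in Diabetic 1 and Diabetic 2, and 5593 and 2390 in Control 1 and Control 2. The endothelial class held 1800 and 871 Diabetic cells, with 6788685 and 4815783 UMIs (unique molecular identifiers, 1 per captured RNA molecule), and 841 and 377 Control cells, with 3178948 and 1990212 UMIs. All 12 of its defining markers were detected in each library, at a summed 16763 and 16374 CPM in Diabetic and 14673 and 16113 CPM in Control. Median depth was 2868 and 4138 UMIs per Diabetic endothelial cell and 2943 and 4040 UMIs per Control cell, while the median mitochondrial share was 3.05% and 3.97% in Diabetic and 6.38% and 5.86% in Control. Libraries shared 5 to 9 cell barcodes per pair, at most 0.194% of the smaller library. Of 4 endothelial clusters, cluster 17 held 95 and 61 cells of the Diabetic libraries and 0 and 0 of the Control libraries. Genes that led it include Vcam1 itself, so its makeup used the members' counts. Cells with clear pericyte RNA as well were left out of the class.

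The selectins, which make the first contact, were counted in endothelial cells of the Diabetic libraries alone. Sele, E-selectin, had 143 and 105 UMIs in Diabetic endothelial cells, or 21.1 and 21.8 CPM, and 0 and 0 UMIs in Control. With 3 UMIs as the level that a count of 0 allows, Control could hold up to 0.944 and 1.51 CPM. Against 3 UMIs over both Control libraries, summed Sele was at least 36.8-fold higher in Diabetic, a bound for counting error only that was 14.2-fold without Control 1 and 22.6-fold without Control 2. Selp, P-selectin, which endothelial cells store in granules with von Willebrand factor, had 111 and 24 UMIs in Diabetic, or 16.4 and 4.98 CPM, and 0 and 0 in Control, at least 20.05-fold higher by the same bound. That bound was 8.59-fold without Diabetic 1, 7.72-fold without Control 1 and 12.3-fold without Control 2. Both Diabetic libraries lay above both Control libraries for each selectin, but Selp differed between the Diabetic libraries by more than its counting error, with 95% Poisson intervals of 13.5 to 19.7 CPM and 3.19 to 7.42 CPM.

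Vcam1 and Icam1, the endothelial partners of the leukocyte integrins, were higher in both Diabetic libraries as well. Vcam1, which binds the integrin made of Itga4 and Itgb1, had 249 and 329 CPM in Diabetic endothelial cells and 34.9 and 61.3 CPM in Control. Its mean was 289 ± 56.3 CPM in Diabetic and 48.1 ± 18.7 CPM in Control (SD, n = 2 each), a fitted log2 fold change of 2.61 ± 0.23 (SE). Icam1, which binds the integrins of Itgb2, had 86.5 and 141 CPM in Diabetic and 20.4 and 22.6 CPM in Control, a log2 fold change of 2.39 ± 0.26. Neither gene's groups overlapped. Icam2, the constitutive relative of Icam1, had 201 and 164 CPM in Diabetic and 198 and 207 CPM in Control, so its groups overlapped and its log2 fold change was -0.16 ± 0.11.

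Ackr1, a chemokine receptor without classical signalling that carries chemokines across venular endothelium, showed the widest gap among members with counts in both groups. It had 160 and 188 CPM in Diabetic endothelial cells and 3.77 and 3.52 CPM in Control, from 12 and 7 Control UMIs, and a log2 fold change of 5.53 ± 0.20. Csf1, the growth factor that sustains monocytes and macrophages through the receptor Csf1r, had 39.6 and 43.0 CPM in Diabetic and 23.3 and 23.6 CPM in Control, a log2 fold change of 0.79 ± 0.15. Both were higher in each Diabetic library than in either Control library.

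Pecam1 and Cd34, surface proteins of the junction and of the luminal coat, differed far less. Pecam1 had 707 and 650 CPM in Diabetic and 660 and 647 CPM in Control, with overlapping groups and a log2 fold change of 0.03 ± 0.09. Cd34 had 580 and 615 CPM in Diabetic and 510 and 548 CPM in Control, which did not overlap, with a log2 fold change of 0.16 ± 0.10. In all, 7 of 9 members lay higher in both Diabetic libraries than in either Control library, beside 26.5% of the 12680 genes tested, and the list was chosen with this contrast known. In bulk sums over a class, more cells that hold a transcript and more transcript per cell cannot be told apart, and the next values separate them only in part.

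**Figure D1:**
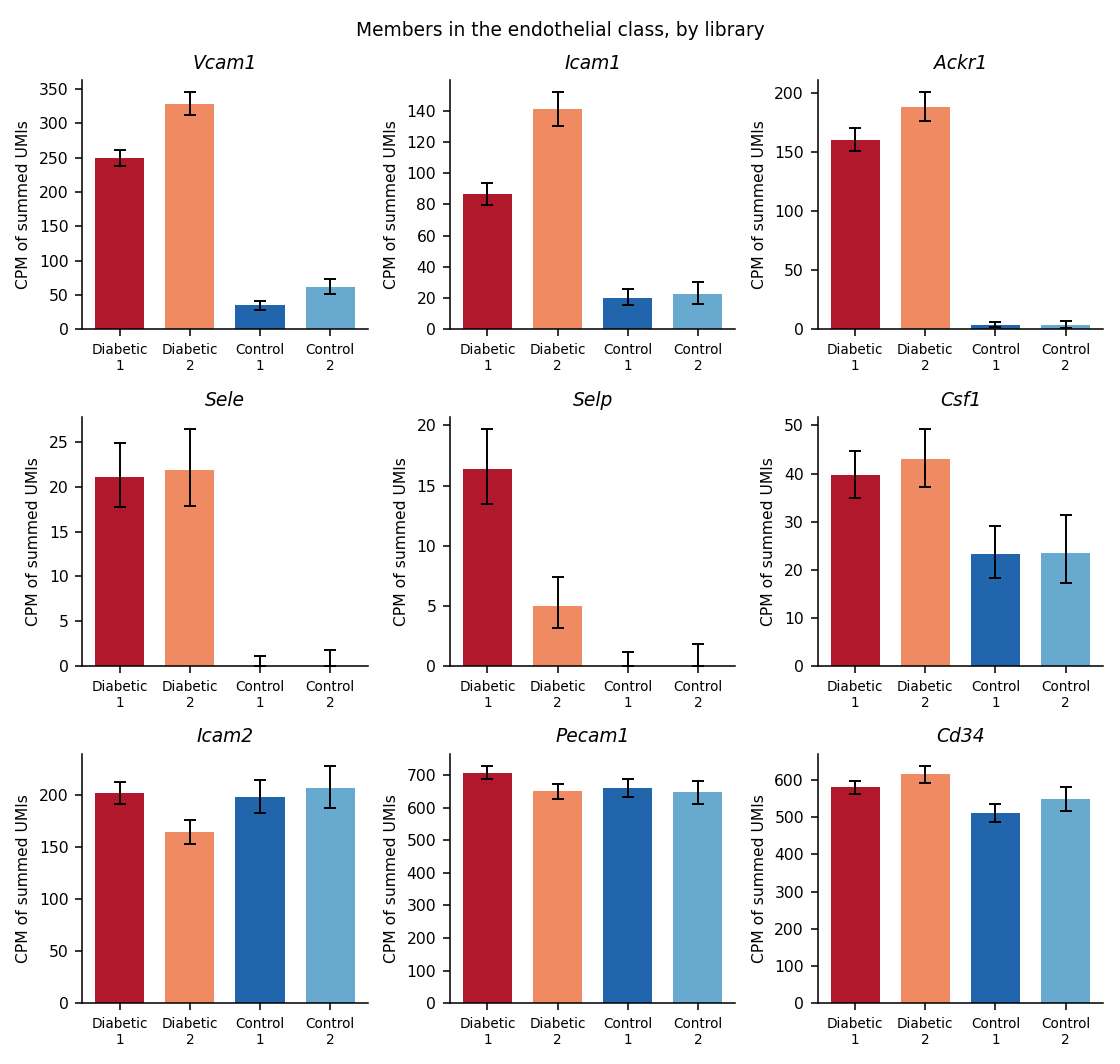
Level of each member in the endothelial class, in CPM of summed UMIs (vertical axis from 0), in the 2 Diabetic and 2 Control libraries. Bars are single libraries and error lines their 95% exact Poisson intervals, which cover counting error only; Vcam1, Icam1, Ackr1, Sele, Selp and Csf1 stand higher in both Diabetic bars, while Icam2 and Pecam1 overlap.

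For Vcam1, the difference lay both in how many cells of the class held a UMI and in how many UMIs those cells held. Vcam1 was detected in 13.7% and 15.7% of Diabetic endothelial cells and in 5.71% and 8.49% of Control cells. A Vcam1-positive cell held on average 6.87 and 11.5 of its UMIs in Diabetic and 2.31 and 3.81 in Control. Cluster 17, which had no Control cells, held 86 of 246 and 58 of 137 Vcam1-positive Diabetic cells. Those cells held 71.5% and 79.0% of the Vcam1 UMIs, so the Diabetic averages do not describe Vcam1-positive cells in general. Rods, which should lack Vcam1, had it in 3.001% and 4.03% of Diabetic cells and 2.05% and 1.01% of Control cells, at median depths of 3073 and 5362 UMIs in Diabetic and 3346 and 4571 UMIs in Control. After each endothelial cell had been thinned to 1000 UMIs, which left out 237 and 100 Diabetic and 120 and 45 Control cells, Vcam1 remained in 8.77% and 7.91% of Diabetic cells and 2.22% and 2.41% of Control cells. Icam1 was detected in 12.2% and 17.2% of Diabetic cells and 5.47% and 6.10% of Control cells, against at most 1.98% of rods in any library.
Sele was detected in 43 and 31 Diabetic endothelial cells, or 2.39% and 3.56%, against 3 and 1 rods (0.0892% and 0.0683%) of the same libraries. Selp was detected in 27 of 1800 and 13 of 871 Diabetic cells, against 4 and 2 rods (0.119% and 0.137%). No Control endothelial cell or rod held either selectin; the 841 and 377 Control endothelial cells allow a share of up to 0.357% and 0.796% of cells with a captured UMI, which does not limit the share that expressed the gene. The selectins were thus counted in few cells, at 3.33 and 3.39 Sele UMIs and 4.11 and 1.85 Selp UMIs per positive Diabetic cell. Pecam1 was detected in 78.7% and 78.9% of Diabetic cells and 77.5% and 79.3% of Control cells.

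Most UMIs of the inducible members came from a small group of cells. Cluster 17 held 13.2% and 19.3% of all endothelial UMIs in Diabetic 1 and Diabetic 2. It held 71.5% and 79.0% of the Vcam1 UMIs, 58.3% and 69.3% of the Icam1 UMIs and 96.0% and 98.7% of the Ackr1 UMIs. For Sele the shares were 90.2% and 97.1%, for Selp 99.1% and 100%, and for Csf1 50.6% and 55.6%. Within that cluster Vcam1 reached 1347 and 1345 CPM and Icam1 381 and 506 CPM, values that its own definition used. Outside it, summed Vcam1 and Icam1 still ran higher in Diabetic, with log2 fold changes of 0.82 ± 0.20 and 1.11 ± 0.18, whereas those of Ackr1 (0.54 ± 0.47) and Csf1 (-0.05 ± 0.17) had SEs of similar or larger size than the values.

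Along the vessel tree, Ackr1, Icam1, Sele, Selp and Csf1 were highest in venous cells of the Diabetic libraries, while Vcam1 was high in venous and arterial cells. Endothelial cells were assigned to arterial, capillary or venous zones from UMIs of 9, 6 and 6 zone genes, none of them a member. This placed 106 and 59 Diabetic cells in the venous zone, or 5.89% and 6.77% of the class, but 7 and 5 Control cells, or 0.832% and 1.33%. Venous-list genes Il1r1 and Tmem252 themselves ran higher in Diabetic endothelial cells, at 62.9 and 88.7 CPM and at 415 and 445 CPM, than in Control, at 26.1 and 32.2 CPM and at 135 and 160 CPM. The part of these genes in the difference in venous cell number was not tested.
In Diabetic venous cells Vcam1 had 1349 and 1452 CPM, against 62.4 and 63.9 CPM in Diabetic capillary cells, a log2 ratio of 4.43 and 4.51. Ackr1 had 1265 and 1090 CPM in Diabetic venous cells and 7.83 and 5.16 CPM in Diabetic capillary cells. Icam1 had 397 and 515 CPM in the venous and 37.4 and 51.0 CPM in the capillary cells, and Csf1 151 and 136 CPM and 22.7 and 24.9 CPM. Sele had 146 and 110 CPM in venous and 2.10 and 2.29 CPM in capillary cells, and Selp 134 and 30.6 CPM in venous cells with 1 and 0 UMIs in capillary cells. Each of these 6 genes was thus higher in venous than in capillary cells of both Diabetic libraries.
The arterial zone held few cells, 25 and 12 in Diabetic and 14 and 11 in Control. Vcam1 had 1403 and 278 CPM there in Diabetic, from 67 and 8 UMIs, and 637 and 214 CPM in Control, from 20 and 9 UMIs. Arterial Vcam1 thus lay above venous Vcam1 in Diabetic 1 and in both Control libraries and below it in Diabetic 2, and in Diabetic 1 and Control 2 the 95% Poisson intervals of the zones overlapped. Icam1 had 7 and 1 UMIs in Diabetic and 2 and 0 UMIs in Control arterial cells, and Ackr1, Sele and Selp had none. Csf1 averaged 80.2 ± 64.3 CPM (SD) in Diabetic arterial cells from only 7 UMIs, with 0 in Control. Its rank below venous Csf1 thus rests on few counts.
The 7 and 5 Control venous cells gave only 1 and 3 Vcam1 UMIs, 0 and 2 of Icam1 and none of Ackr1, Sele, Selp or Csf1, too few to set a level. In capillary cells, with 755 and 332 in Control, Icam1 lay at 37.4 and 51.0 CPM in Diabetic and 20.4 and 20.3 CPM in Control, and Vcam1 at 62.4 and 63.9 CPM in Diabetic and 25.2 and 48.6 CPM in Control. Csf1 had 22.7 and 24.9 CPM in Diabetic and 24.8 and 24.6 CPM in Control capillary cells, so its groups overlapped there.

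The capillary list was carried mostly by 2 abundant genes, Spock2 and Slco1c1. A broader gate without them, chosen after the values had been seen, gave more Control cells in the arterial and venous zones. Fewer Control cells fell in the capillary zone, 301 and 137, and more were left without a zone, 348 and 137. This gate placed 260 and 129 Diabetic and 39 and 24 Control cells in the venous zone. Vcam1 there had 859 and 962 CPM in Diabetic and 149 and 180 CPM in Control venous cells. Its arterial level was 182 and 191 CPM in Diabetic and 75.5 and 67.1 CPM in Control, and its capillary level 13.0 and 41.5 CPM in Diabetic and 3.87 and 14.1 CPM in Control. With this gate Vcam1 ordered venous over arterial over capillary in all 4 libraries, an order that the narrower gate above gave in Diabetic 2 alone, and in Control 1 the 95% Poisson intervals of the venous cells (99.5 to 213 CPM) and the arterial cells (54.6 to 102 CPM) overlapped.
Icam1 had 264 and 375 CPM in Diabetic and 35.9 and 49.8 CPM in Control venous cells of the broader gate, 34.5 and 33.6 CPM in Diabetic and 16.2 and 16.7 CPM in Control capillary cells, and 29.8 and 37.9 CPM in Diabetic and 12.3 and 6.29 CPM in Control arterial cells. Ackr1 had 698 and 654 CPM in Diabetic venous cells but 0 and 1 UMIs in Control venous cells. Csf1 had 101 and 104 CPM in Diabetic and 41.0 and 24.9 CPM in Control venous cells, from 8 and 4 Control UMIs. Sele and Selp stayed at 0 in Control in each zone, while Diabetic venous cells had 87.2 and 75.4 CPM of Sele and 73.2 and 17.7 CPM of Selp.
Pecam1 and Cd34 were nearly level along the tree. Pecam1 ran from 618 to 782 CPM and Cd34 from 549 to 639 CPM over the 3 zones of the Diabetic libraries, and from 601 to 765 CPM and 435 to 597 CPM over those of Control. Icam2 had its highest value in arterial cells in each library, 259 and 194 CPM in Diabetic and 258 and 210 CPM in Control.

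**Figure D2:**
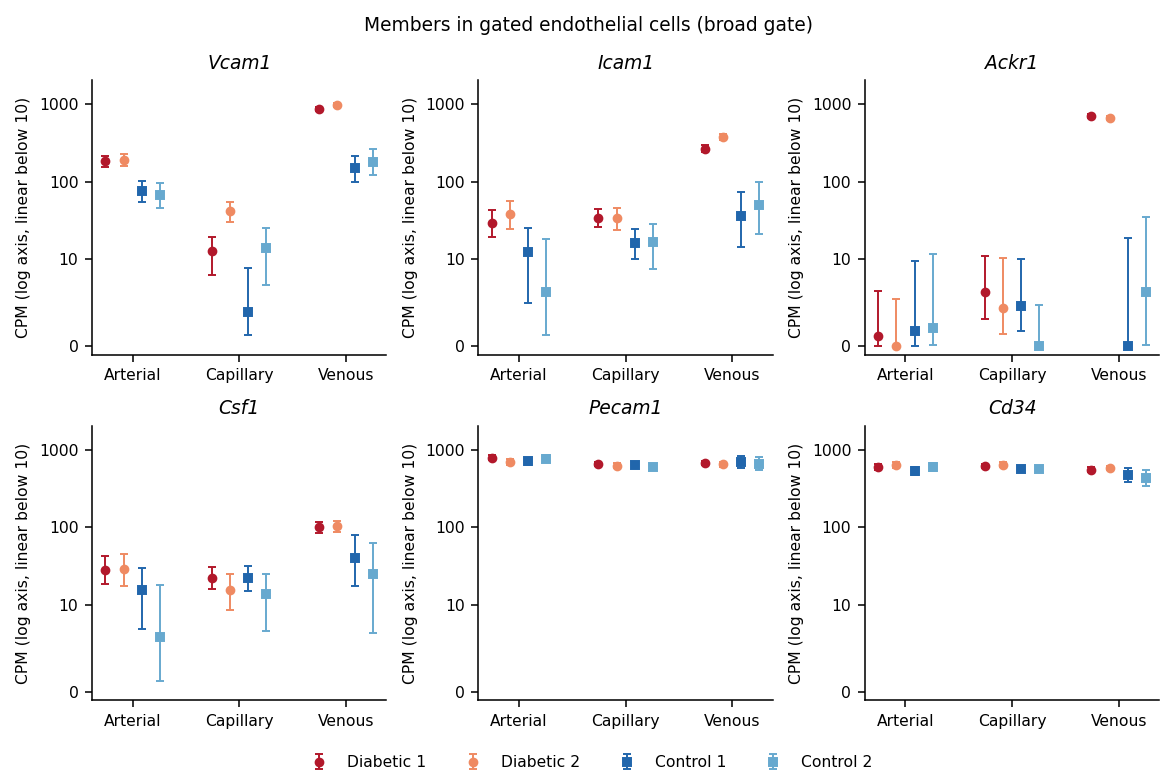
Level of 6 members in arterial, capillary and venous endothelial cells of the broader gate, in CPM on a log axis that is linear below 10, for each of 2 Diabetic and 2 Control libraries. Points are libraries and lines 95% exact Poisson intervals; Vcam1 in venous cells lies at 859 and 962 CPM in Diabetic and 149 and 180 CPM in Control, while Pecam1 and Cd34 stay near the same level in all zones.

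Single cells often held several of these genes, though most cells with any held 1. Of Vcam1, Icam1, Ackr1, Sele and Selp, exactly 1 was detected in 256 and 135 Diabetic endothelial cells and in 83 and 44 Control cells. At least 2 were detected in 135 and 86 Diabetic endothelial cells (7.50% and 9.87%) and in 11 and 8 Control cells (1.31% and 2.12%). At least 3 were detected in 68 and 47 Diabetic cells and in 0 and 1 Control cells, and all 5 in 11 and 9 Diabetic cells and in no Control cell. The cells with several genes were deep ones: Sele-positive cells had a median of 12667 and 19057 UMIs, against 2809 and 4024 UMIs in Sele-negative cells of the same Diabetic libraries. With every cell thinned to 1000 UMIs, at least 2 genes were detected in 59 and 32 Diabetic cells and in 2 and 0 Control cells.

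**Figure D3:**
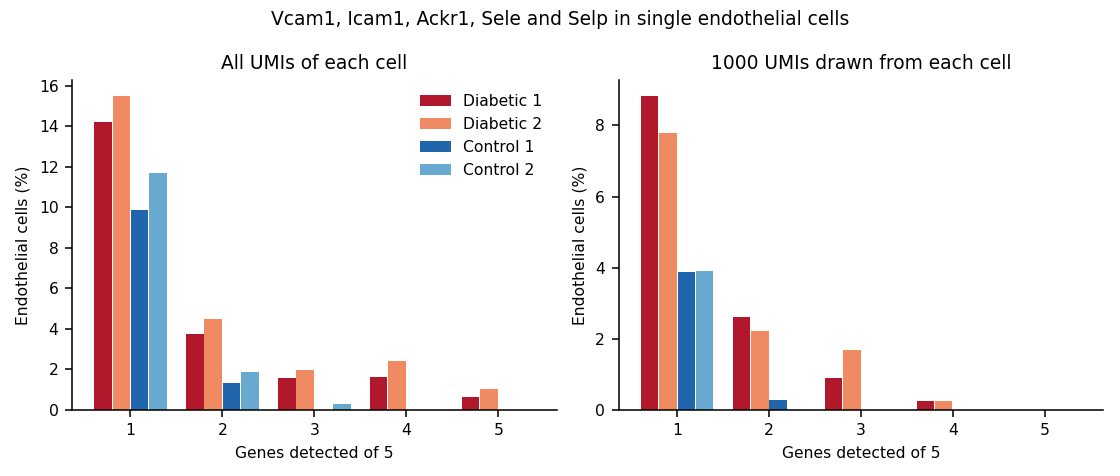
Share of endothelial cells (%) in which 1 to 5 of Vcam1, Icam1, Ackr1, Sele and Selp were detected, from all UMIs of a cell and after thinning to 1000 UMIs, for the 2 Diabetic and 2 Control libraries. Cells with at least 3 genes number 68 and 47 in Diabetic and 0 and 1 in Control before thinning.

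Pair by pair, the selectins nested inside the Vcam1-positive cells. Of the 43 and 31 Sele-positive Diabetic cells, 39 and 30 also held Vcam1 (90.7% and 96.8%). Of the 27 and 13 Selp-positive cells, 26 and 13 held Vcam1 and 24 and 13 held Ackr1. Sele and Selp themselves met in 14 and 9 cells, 21.7 and 19.5 times the number expected had the genes been detected independently. Conversely, 15.9% and 21.9% of Vcam1-positive Diabetic cells held Sele.
Vcam1 and Icam1 met in 105 and 74 Diabetic cells where independence gives 29.9 and 23.6, and in 10 and 8 Control cells where it gives 2.63 and 1.95. The ratio of observed to expected cells was 3.51 and 3.14 in Diabetic and 3.81 and 4.10 in Control from all UMIs. Vcam1-positive cells were also deeper, with medians of 5158 and 8768 UMIs in Diabetic and 4487 and 8789 UMIs in Control, against 2676 and 3829 UMIs in Diabetic and 2880 and 3806 UMIs in Control cells without it. Ackr1 and Vcam1 met in 76 of 110 and 54 of 62 Ackr1-positive Diabetic cells, 5.06 and 5.54 times the expected number. Detection of Ackr1 alone did not set endothelial cells apart, since it was found in 6.11% and 7.12% of Diabetic endothelial cells and in 9.66% and 13.8% of Diabetic rods. An Ackr1-positive cell held on average 9.89 and 14.6 of its UMIs in Diabetic endothelium and 1.39 and 1.66 in Diabetic rods. Csf1, present in many capillary cells, met Vcam1 in 82 and 54 Diabetic cells, a ratio of 3.64 and 3.54.
Pecam1 and Cd34, both widespread, gave 1.09 and 1.09 in Diabetic and 1.11 and 1.10 in Control. The ratio is capped by the share of cells that hold the more widespread gene of a pair. Genes found in most cells therefore cannot reach a high ratio, and theirs are no measure against which to set those of rarer genes. At 1000 UMIs per cell, Pecam1 and Cd34 gave 1.03 and 1.02 in Diabetic, while Vcam1 and Icam1 gave 3.97 and 6.02 from 24 and 20 joint cells in Diabetic, and Vcam1 and Ackr1 7.95 and 8.58. In Control, 2 and 0 cells held both Vcam1 and Icam1 at that depth, too few to set a ratio. Within venous cells of the broader gate the ratios were lower, at 1.74 and 1.503 for Vcam1 with Icam1 and 1.92 and 1.80 for Vcam1 with Ackr1 in Diabetic. There 70 of 77 and 47 of 48 Ackr1-positive Diabetic cells held Vcam1.

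**Figure D4:**
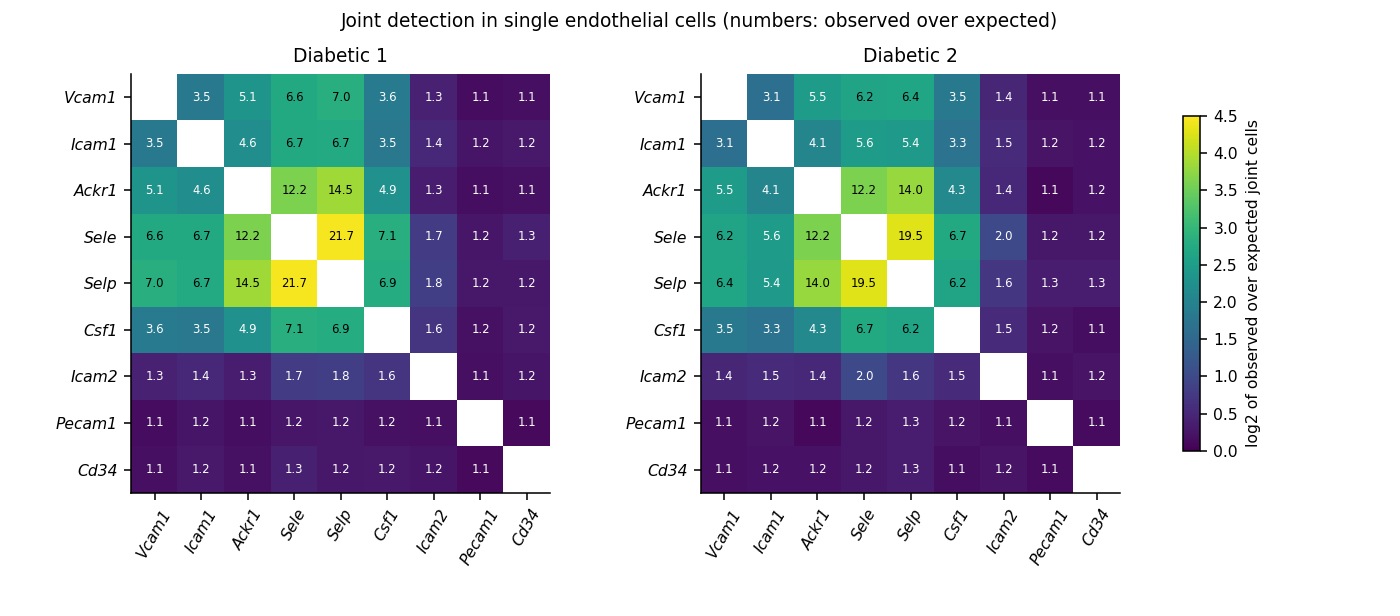
Observed over expected number of endothelial cells holding both genes of a pair, in Diabetic 1 and Diabetic 2, with the colour showing the log2 of the ratio. Sele with Selp stands highest at 21.7 and 19.5, and Icam2, Pecam1 and Cd34 stay at or under 2.00 with every other member. The ratio is capped by the share of cells holding the more widespread gene of a pair, so widespread genes cannot stand high.

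The genes whose profile over the 12 sums of library and zone was closest to a member's, by Pearson correlation of log2(CPM + 10) among the 6991 genes that averaged 20 CPM or more, are given as a description, since the sums share libraries. For Vcam1 these were Igfbp4 (r = 0.916), Igfbp3 (0.908) and Ifitm3 (0.883), and for Icam1 Lrg1 (0.929), Rpl29 (0.900) and Ptgs2 (0.890), the inducible enzyme of prostaglandin synthesis. For Sele they were Tnfsf8 (0.999), Cadm3 (0.997) and Dcn (0.995), and for Selp Dcn (0.974), Tnfsf8 (0.951) and Cadm3 (0.943). For Csf1 they were Armcx2 (0.956), Fkbp1a (0.937) and Lgals1 (0.922). For Ackr1 they were Cadm3 (above 0.999), Tnfsf8 (0.997) and Cd14 (0.992), a co-receptor for lipopolysaccharide. Sele, Selp and Ackr1 had at most 7.83 CPM in every sum outside the Diabetic venous ones. Their r values thus rest on the Diabetic venous sums, and any gene largely confined to those would have a high r. Both Control venous sums together held only 34539 UMIs.
Cadm3, a cell adhesion molecule of neurons, is the gene whose 3′ end Ackr1 overlaps. It had 25.5 and 32.2 CPM in Diabetic endothelial cells and 2.20 and 1.51 CPM in Control. In Diabetic endothelial cells 0.159 and 0.171 Cadm3 UMIs were counted per Ackr1 UMI. In cones that ratio was 1.38 and 1.26 in Diabetic and 1.15 and 1.504 in Control, and in rods 1.11 and 1.15 in Diabetic and 1.00 and 1.29 in Control. Ackr1 was counted at 44.2 and 45.3 CPM in cones of the Diabetic and 51.5 and 42.8 CPM in cones of the Control libraries, and at 14.6 and 15.0 CPM in Diabetic and 14.2 and 7.77 CPM in Control rods. Control endothelial cells, at 3.77 and 3.52 CPM, thus lay below the rods of their own libraries. How the UMIs of this shared stretch were divided between Ackr1 and Cadm3 was not tested.

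Other cell classes, whose values the choice of genes did not use, allowed tests of Diabetic against Control. Over pericytes, Müller glia, microglia and rods, 15 pairs of member and class had counts enough, and 1 was called at an adjusted p under 0.05 by edgeR's quasi-likelihood test with Benjamini-Hochberg adjustment. That was Icam1 in rods, where 11.3% of all genes were called (5.92% higher, 5.35% lower), a rate that rests on both Diabetic libraries, since 3 genes were called without Diabetic replicate 1 and 0 without Diabetic replicate 2. Its level there was 1.39 and 1.30 CPM in Diabetic and 0.255 and 0.563 CPM in Control (log2 fold change 1.74 ± 0.43, edgeR adjusted p = 0.0453), a small fraction of its endothelial level, and leaving out Diabetic replicate 1 or 2 or Control replicate 1 ended the call. Rods of the Diabetic libraries also held 3 and 1 UMIs of Sele, against 0 and 0 in Control rods, and the part of free endothelial RNA in these values was not tested.
Müller glia, the radial glia of the retina, held Vcam1 at 51.0 and 43.9 CPM in Diabetic and 80.9 and 62.5 CPM in Control. Both Diabetic libraries lay lower, but the log2 fold change of -0.65 ± 0.22 did not pass the test (edgeR adjusted p = 0.109; 3.49% of genes called, 2.03% higher and 1.46% lower). Without Control replicate 2 it was -0.87 and passed (edgeR adjusted p = 0.0116). The Control endothelial levels given above, 34.9 and 61.3 CPM, were no higher than those of Control Müller glia. Csf1 in Müller glia was at 20.8 and 17.2 CPM in Diabetic and 26.2 and 11.4 CPM in Control, which overlapped (-0.01 ± 0.41, edgeR adjusted p = 0.991).
Microglia, the retina's resident macrophages, held Icam1 at 216 and 111 CPM in Diabetic and 62.5 and 182 CPM in Control, from 55 and 21 and from 9 and 15 UMIs. The groups overlapped and the fold change was not called (0.65 ± 0.46, edgeR adjusted p = 0.722; 0.674% of genes called, 0.319% higher and 0.355% lower). Cd34 was at 161 and 259 CPM in Diabetic and 118 and 133 CPM in Control microglia (0.80 ± 0.38, edgeR adjusted p = 0.559). Pericytes held Pecam1 at 70.3 and 79.6 CPM in Diabetic and 76.7 and 112 CPM in Control and no UMI of Icam1 or Sele. Pecam1 and Cd34 were not called in pericytes (0.0188% of genes called). The pericyte cluster also had a level of endothelial markers at 0.218 of the highest cluster. The part of endothelial RNA in its Pecam1 and Cd34 was not tested.

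**Figure D5:**
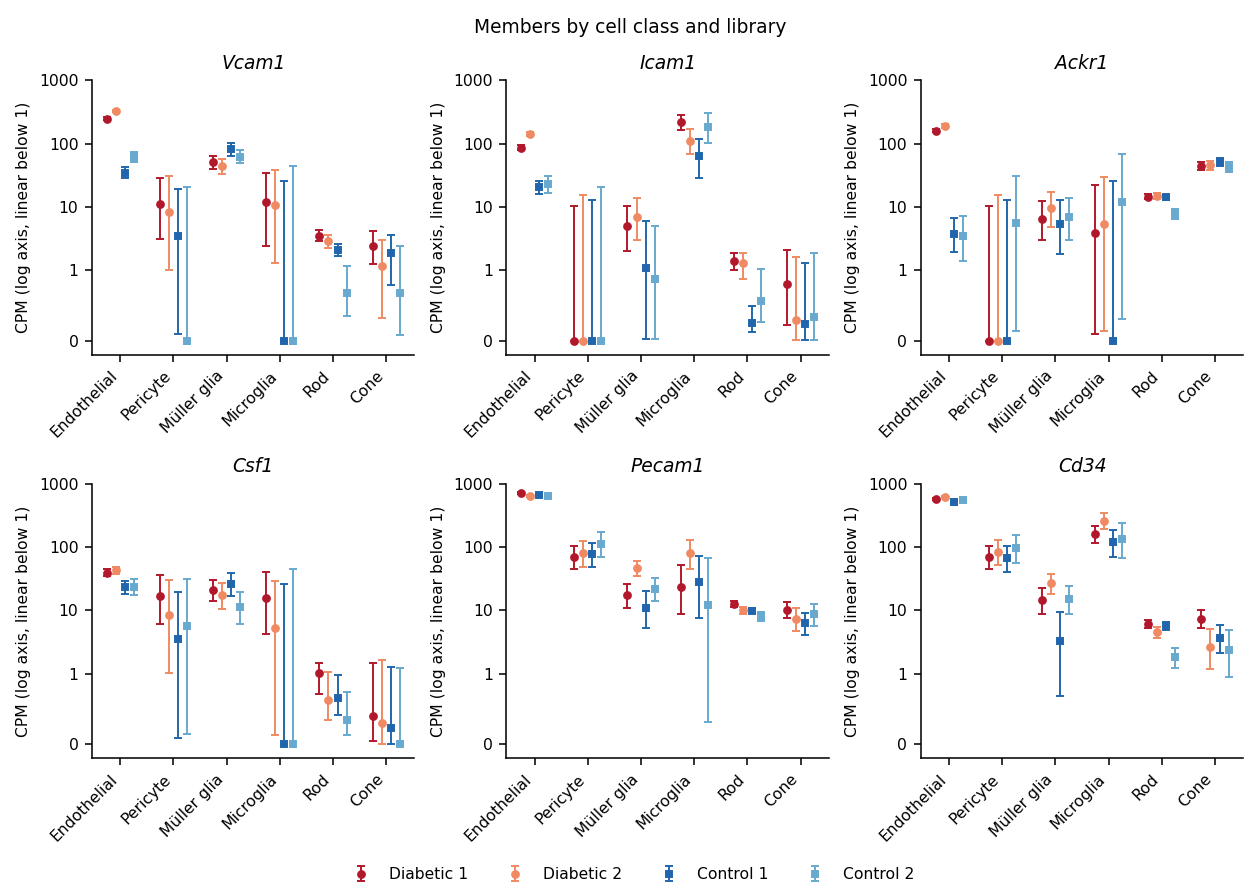
Level of 6 members in 6 cell classes, in CPM on a log axis that is linear below 1, for each of 2 Diabetic and 2 Control libraries, with 95% exact Poisson intervals as lines. Pecam1 is highest in endothelial cells in all libraries, Icam1 is also high in microglia, Vcam1 also in Müller glia, and Ackr1 also in cones.

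The wider recruitment pathway was read from 54 further genes, listed by role, of which 43 had counts enough in endothelial cells. Of these, 6 were higher and 0 lower in Diabetic by edgeR's quasi-likelihood test at an adjusted p under 0.05, beside 2.03% and 1.17% of all 12680 genes tested. DESeq2 also called 6 of the list, and 12 passed an unadjusted p under 0.05 in edgeR. The median log2 fold change of the 43 was 0.16, against -0.01 over all genes. Some of these genes were already known to change in these data, so the count is no independent evidence.
Receptors of the inducing cytokines included 2 of 7 that rose. Tnfrsf1a, a receptor of tumour necrosis factor, had 86.0 and 86.4 CPM in Diabetic and 38.1 and 51.8 CPM in Control (log2 fold change 0.95 ± 0.15, edgeR adjusted p = 0.00912). Il1r1, the interleukin-1 receptor, rose by 1.37 ± 0.21 (edgeR adjusted p = 0.00866), to 62.9 and 88.7 CPM in Diabetic against 26.1 and 32.2 CPM in Control. The other 5 were not called; Il6st, for one, had 110 and 122 CPM in Diabetic and 103 and 125 CPM in Control.
Among 10 genes of docking platforms and granules, 2 rose. Vwf, von Willebrand factor, had 469 and 559 CPM in Diabetic and 131 and 177 CPM in Control (1.73 ± 0.16, edgeR adjusted p = 0.000656). Cd9, a tetraspanin that clusters VCAM-1 and ICAM-1, rose by 0.68 ± 0.12 (edgeR adjusted p = 0.0155). Of 13 junction and passage genes, Mcam (0.99 ± 0.16, edgeR adjusted p = 0.0120) and Nectin2 (0.81 ± 0.16, edgeR adjusted p = 0.0284) rose. Cdh5, VE-cadherin, was at 468 and 478 CPM in Diabetic and 443 and 491 CPM in Control.
Chemokines gave 0 calls among the 5 tested. Cxcl12, which draws leukocytes through the receptor CXCR4, had 4804 and 3992 CPM in Diabetic and 4030 and 3359 CPM in Control, and Cxcl1 had 6.04 and 11.2 CPM in Diabetic and 1.89 and 0 CPM in Control (edgeR adjusted p = 0.0725). Neither shedding protease was called, with Adam17 at 59.2 and 49.0 CPM in Diabetic and 60.1 and 55.8 CPM in Control. Without cluster 17, 2 of the list were still called, Vwf (0.65 ± 0.13, edgeR adjusted p = 0.0444) and Mcam (0.83 ± 0.16, edgeR adjusted p = 0.0397), and Il1r1 had a log2 fold change of -0.27 ± 0.17. Without Diabetic replicate 2, 2 were called as well.

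On the leukocyte side, the libraries held few of the cells that carry the partners of these molecules. The neutrophil cluster held 19 and 3 cells of the Diabetic and 1 and 0 of the Control libraries. Another leukocyte cluster, led by Lyz2, Fcer1g and Ptprc and left without a cell type name, held 55 and 28 Diabetic cells, or 0.744% and 0.819% of all kept cells, and 12 and 6 Control cells, or 0.215% and 0.251%. A further cluster, led by Cd74, Igkc and H2-Aa, held 17 and 1 Diabetic cells, or 0.230% and 0.0292%, and 11 and 6 Control cells, or 0.197% and 0.251%, so its groups overlapped. The microglia held 62 and 37 Diabetic and 52 and 27 Control cells. A cluster led by the haemoglobin genes Hbb-bs and Hba-a1 held 42 and 2 Diabetic and 7 and 0 Control cells. Whether the leukocytes came from the tissue or from blood left in the vessels was not tested.
In the unnamed leukocyte cluster, the Vcam1 partner Itga4 had 1334 and 1604 CPM in Diabetic and 260 and 687 CPM in Control. There Itgal, the alpha chain of the main ICAM-1 receptor, had 807 and 967 CPM in Diabetic and 280 and 458 CPM in Control, and its beta chain Itgb2 767 and 916 CPM in Diabetic and 79.9 and 356 CPM in Control. These Control values rest on 4 to 27 UMIs each, and no test was made. The part of the cluster's mix of leukocytes in these values was not tested. Microglia held no Itgal UMI and had Itgb2 at 306 and 274 CPM in Diabetic and 195 and 267 CPM in Control. Csf1r, the receptor of Csf1, had 1748 and 1847 CPM in Diabetic and 1744 and 1978 CPM in Control microglia, and at most 3.24 CPM in endothelial cells of any library.
Leukocyte markers were also counted within the endothelial class. The 6 neutrophil markers summed to 42.9 and 29.1 CPM in Diabetic endothelial cells and 8.18 and 0.502 CPM in Control, with S100a8, Retnlg, Csf3r and Mmp9 at 0 in both Control libraries. The 7 microglia markers summed to 16.9 and 7.89 CPM in Diabetic and 4.72 and 22.1 CPM in Control. Cells with an S100a8 or S100a9 UMI numbered 170 and 83 in the Diabetic class, or 9.44% and 9.53%, and 1 and 0 in Control. Leaving them out left Ackr1 at a log2 fold change of 5.24 ± 0.21.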

How the data were processed

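The authors deposited raw counts of UMIs per gene and cell barcode, made with Cell Ranger 7.0.0; STAR 2.7.10b and the build mm10 are also named, per the submitters' processing notes. Whether counting used strand, and how UMIs of overlapping genes were treated, is not given in the sources used here. A barcode was retained with 500 or more UMIs, 300 or more genes and no more than 20% of UMIs from mitochondrial genes. Called as doublets were the top Scrublet scores, at 0.8% per 1000 cells in every library, which removed 6.31% and 2.81% of the Diabetic and 4.69% and 1.97% of the Control cells. Clustering (scanpy 1.11.5, 2000 variable genes, 30 components, 20 neighbours, Leiden resolution 1) gave 25 clusters, named from marker lists, with levels for mixed clusters set after the clusters were seen. A cell joined a zone with at least 2 UMIs of its list and more than of the other lists together.

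Counts were summed per library and class, and CPM are these sums scaled to 1000000 per library. Diabetic was tested against Control with edgeR 4.0.16 in R 4.3.3, by its two-sided quasi-likelihood test after filterByExpr and TMM scaling. P-values were adjusted by Benjamini-Hochberg over all genes of the class, and DESeq2 1.42.0 was an alternative. The fit was first run on simulated counts with the same dispersion for every gene, so real differences in spread between genes were absent. Of 100 genes changed 2-fold there, it called 70 in endothelial cells, 51 in pericytes, 49 in Müller glia, 67 in microglia and 71 in rods. An uncalled member may thus still differ. Intervals are exact Poisson or Clopper-Pearson at 95%, and a count of 0 is read as up to 3. Gene positions are from GENCODE vM21.

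The members, lists, zones and tests were chosen with earlier results of these data known. All members are named in each result; of the pathway list, up to 3 called genes per role and direction; and the 3 genes most like each of 6 members. Cd99 of the list is not analysed here. Values of 1 zone gene are not reported here.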

Additional observations from a re-analysis of the deposited data

Results flagged for a closer look

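Vcam1 ran in opposite directions in endothelial cells and Müller glia: the ratio of summed CPM, Diabetic over Control, was 6.26 in endothelial cells and 0.676 in Müller glia, with each Diabetic library on its own side of both Control libraries in either class. The difference between the classes was not tested.

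In barcodes with RNA of both endothelial cells and pericytes, which the comparisons above left out, some members were flagged as higher in both Diabetic libraries, beyond counting error. The Icam1, Vcam1 and Pecam1 values that follow were picked for this gap, so they are a description and no test of its direction. How often other members or other genes showed such a gap in these clusters is not given here. In cluster 5, Icam1 averaged 47.8 CPM in Diabetic and 24.1 CPM in Control. In cluster 15, Vcam1 averaged 301 CPM in Diabetic and 157 CPM in Control, and Pecam1 511 CPM in Diabetic and 387 CPM in Control. Selp had 0 UMIs there; Sele had at most 2.25 CPM in any library, with 3 and 7 UMIs in Diabetic and 1 and 0 in Control cells of cluster 5, and Ackr1 at most 3.45 CPM.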

How the results depend on the processing

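With 2 libraries per group, each p-value rests on a spread estimated from 2 residual degrees of freedom per gene and shared across genes. Few Control cells were venous, and the Control selectin counts were 0, so no Control level could be set for them. The fitted endothelial changes of Vcam1 and Icam1 kept their sign under all 18 alternatives, from 0.82 to 3.03 and from 1.01 to 2.98. That of Ackr1 kept its sign under the 16 in which it was fitted, from 0.54 to 7.89. Arterial cells of the broader gate held only 1 Ackr1 UMI in Diabetic and 2 in Control. Csf1 was positive in 16 of 18, from -0.16 to 1.66. All these fits reuse the same counts, and the members were chosen with the Diabetic and Control values known. Kept signs are therefore a description and no added support. Results that changed under an alternative follow, and the cause was not tested unless fewer cells or genes entered.

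Endothelial genes called numbered 405, and became 1209 with no filter on low counts, 68 with a marker gate in place of clusters, 237 without venous gated cells and 162 after thinning to 1000 UMIs. In alternatives added after seeing the data they numbered 196 without cluster 17, 171 without venous cells of the broader gate, and 93 and 92 in its arterial and capillary cells. The 6 called pathway genes became 12, 1, 2, 1, 2, 1, 2 and 2 under the same 8 alternatives. Pericyte calls (1) became 10 with total-count scaling and 23 with no filter. Müller calls (382) became 156 with DESeq2, 238 with total counts and 901 with no filter. Microglial calls (19) became 10 and 40 with total counts and no filter, and rod calls (1856) became 3239 with no filter. With total-count scaling, higher and lower calls were split 1638 and 386 in rods, 172 and 66 in Müller glia and 3 and 7 in microglia, against 975 and 881, 222 and 160, and 9 and 10.

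Leaving out 1 library in turn gave 114 to 792 endothelial, 2 to 8 pathway, 7 to 21 pericyte, 238 to 1396 Müller, 19 to 53 microglial and 0 to 1836 rod calls. The 0 rod calls came without Diabetic replicate 2 in edgeR, where 3516 genes had an unadjusted p under 0.05, and 3 came without Diabetic replicate 1. Signs turned for uncalled members. Pericyte Cd34 ran from -0.36 to 0.13, turning at 0.13 and 0.05. Müller Csf1 ran from -0.56 to 0.68, turning at 0.68 and 0.10, and was 0.07 with total counts and 0.02 with no filter. Müller Pecam1 ran from -0.05 to 1.39 and microglial Icam1 from -0.11 to 1.54. In rods, Icam2 ran from -0.12 to 0.67, with -0.11 as well, Ackr1 from -0.03 to 0.82 and Cd34 from -0.18 to 1.46.

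The log2 ratio of Vcam1 in venous over capillary cells, 4.47 as the mean of the Diabetic libraries, was 4.54 with extended lists, 5.29 with the broader gate and 4.71 with 3 venous genes in it; that of Pecam1 turned to 0.04 with the broader gate. Vcam1 with Icam1, at 3.32 times the expected cells, gave 4.99 after thinning, 3.87 with the marker gate, 1.24 within venous cells and 1.62 within those of the broader gate.

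Libraries with the same replicate number share only that number: their deviations correlated at r = 0.169 over 12680 genes, with 2 pairs. With the replicate number as a block, 1192 endothelial, 11 pathway, 10 pericyte, 692 Müller, 10 microglial and 3928 rod genes were called, and Vcam1 in rods passed the test as well (1.09 ± 0.30, edgeR adjusted p = 0.0162), which it did not without the block (adjusted p = 0.164).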
